A study of Mus musculus with 10 samples.

Results

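The genes described here are 10 members of the TGF-beta and BMP signalling system that act as its feedback arm or are read as its output: Smad6, Smad7, Skil, Tgif1, Id1, Id2, Id3, Tgfb1, Tgfbi and Ltbp1. They were taken by name, as every probe set annotated to 1 of these symbols and no other, which gave 20 probe sets of 45101 on the array, for 10 genes of 18193. They were measured in Lewis lung carcinoma cells, a mouse lung tumour line from the C57BL/6 strain, on Affymetrix Mouse Genome arrays. One line stably carried TDAG8, a G protein-coupled receptor that senses protons and is encoded by Gpr65, and the other the empty control vector. The series asked which genes this receptor regulates in culture.

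Cells of both lines were first held without serum for 12 h at pH 7.4, then given fresh serum-free medium, either acid (pH 6.4) or neutral (pH 7.4), for 4 or 12 h, so all groups share the starvation and the albumin-containing medium. The groups are the TDAG8 line at pH 6.4 for 4 h, pH 6.4 for 12 h, pH 7.4 for 4 h and pH 7.4 for 12 h and before treatment, and the control line in the same 5 conditions. There were 10 arrays, 1 for each line and condition, and each carried RNA pooled from 4 cultures. Whether a line was 1 clone or a mixed population, and which promoter drove TDAG8, is not given in the sources used here. With 1 array per condition there are no replicates, so matched pairs of arrays stood in for them. The p-values measure only the spread of a difference over those pairs, and pooling removed the spread between cultures. For pH the pairs differ in line and time. For the comparison of the lines they differ in pH and time and repeat the same 2 lines.

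The deposited values are signal intensities with a 2% trimmed mean of 100 on every array, with array medians between 11.7 and 13.8, and precision is limited by how few arrays there are. Gpr65 itself read 0.3 to 5.3 on the 10 arrays, under the filter level of 6.61 in both lines, so its probe set did not detect the transgene and gives no check of the labels. Of the epithelial markers, 3 of 4 were at or above the filter level, Krt8 among them with 1242 to 2648, whereas Cdh1 read 0.2 to 5.3. Of the fibroblast markers, 3 of 4 were at or above it as well, with Pdgfra at 264.7 to 1617 and Col1a1 at 0.4 to 6.4. Of the leukocyte markers, 1 of 3 was at or above it, Cd68 with 7.2 to 20.8, and Ptprc read 1.2 to 6.3. Of the endothelial markers, 2 of 4 were, Cdh5 with 6.3 to 12.6 and Kdr with 1.9 to 14.5, and Pecam1 read 0.8 to 6.6.

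TGF-beta and BMP ligands bind serine/threonine kinase receptors that phosphorylate Smad proteins, which enter the nucleus with Smad4 and switch target genes on or off. Several of those targets are brakes on the pathway: the inhibitory Smads block the receptors, and Skil and Tgif1 recruit corepressors to the Smads. Other targets are the Id proteins, which lack a DNA-binding region and hold basic helix-loop-helix factors off DNA. In tumour cells the pathway is known for restraining growth early and for favouring matrix production and invasion later, and TDAG8 is known for raising cAMP when the medium turns acid.

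Id3 and Id2 are shown by sequence because the differences of these close relatives between acid and neutral pH had opposite signs in every pair of arrays. The lines below give the 250 bases before the annotated start, 5′ to 3′ on the gene's strand, from RefSeq with build GRCm38.p6: chr4:136143572-136143821 on the forward strand for Id3 and chr12:25096093-25096342 on the reverse strand for Id2. Capitals mark every match, on either strand, to CAGAC, a Smad-binding element, to TGACG, the core of cAMP response elements, and to GGCGCC, a GC-rich Smad-binding element.
Id3: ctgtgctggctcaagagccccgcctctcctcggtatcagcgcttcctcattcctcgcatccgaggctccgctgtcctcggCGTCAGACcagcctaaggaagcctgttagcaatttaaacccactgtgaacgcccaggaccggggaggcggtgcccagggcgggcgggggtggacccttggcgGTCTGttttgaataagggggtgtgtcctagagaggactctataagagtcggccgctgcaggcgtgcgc
Id2: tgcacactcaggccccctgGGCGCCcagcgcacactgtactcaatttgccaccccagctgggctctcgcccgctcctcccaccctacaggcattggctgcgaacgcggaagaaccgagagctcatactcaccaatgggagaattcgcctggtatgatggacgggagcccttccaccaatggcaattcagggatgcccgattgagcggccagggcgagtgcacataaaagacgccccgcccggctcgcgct
The Id3 window held CAGAC at 167 and 68 bases before the start and TGACG at 170 bases before it, and the TGACG match overlaps the first CAGAC match. The Id2 window held GGCGCC at 231 bases before the start and neither of the other elements. Of 32851 promoters of this length, 42.2% held CAGAC, 17.8% TGACG and 9.59% GGCGCC. RefSeq windows were given for 7 of the 10 genes, 12 windows in all. Of these, 7 held CAGAC (those of Id3, Ltbp1, Tgfbi and Tgif1), 2 TGACG (Id3 and Ltbp1) and 2 GGCGCC (Id2 and Tgfbi). TGACGTCA, the full cAMP response element that 1.55% of promoters held, was in 1 window (Ltbp1). Neither GTCTAGAC, a palindromic Smad-binding element that 0.167% of promoters held, nor CACGTG, an E-box that 6.02% held, was found in the 12 windows. These matches describe letters and say nothing of binding.

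Both inhibitory Smads and the corepressor gene Skil were higher at pH 6.4, in each pair of arrays. No gene of the 10 passed in the opposite direction in the comparison over both times, but this rests on small margins. Id1 and Id2 were lower in each pair and fell short with limma (adjusted p = 0.0639 and 0.0517), while Smad6 passed at 0.0481. pH 6.4 was set against pH 7.4 over 4 pairs of arrays (2 lines, 2 times) with limma on log2(quantile-normalised signal + 2.4), and all 10 genes were above the filter. With Benjamini-Hochberg adjustment over 12161 genes, 3 of the 10 passed at an adjusted p under 0.05, where 10% of all genes passed, 4.47% higher and 5.56% lower. At an unadjusted p under 0.05 there were 7 of the 10, against 31.9% of all genes. The share of calls that were higher was 44.6% over all genes, against 31.9% with arrays centred on the median and 33.1% with the values as deposited. The median log2 difference was 0.45 over the 10 genes and -0.003 over all genes tested. The 10 genes were chosen with earlier results of these data known, so their shares and medians, here and below, are description only. Beside these calls, the summed signal of the 4 fibroblast markers was 1002 to 1278 on the pH 6.4 arrays. It was 2090 to 3552 on the pH 7.4 arrays and 1809 to 2096 before treatment. The epithelial sum was 1286 to 2856 at pH 6.4, against 1614 to 2202 at pH 7.4, and the leukocyte and endothelial sums overlapped too. Within the fibroblast list, Dcn after 4 h at pH 6.4 was above its level before treatment in both lines, and Pdgfra, Pdgfrb and Col1a1 were below theirs. The part of the fibroblast sum in the results was not tested, and fewer cells of a type and less RNA per cell cannot be told apart in bulk samples.

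**Figure D1:**
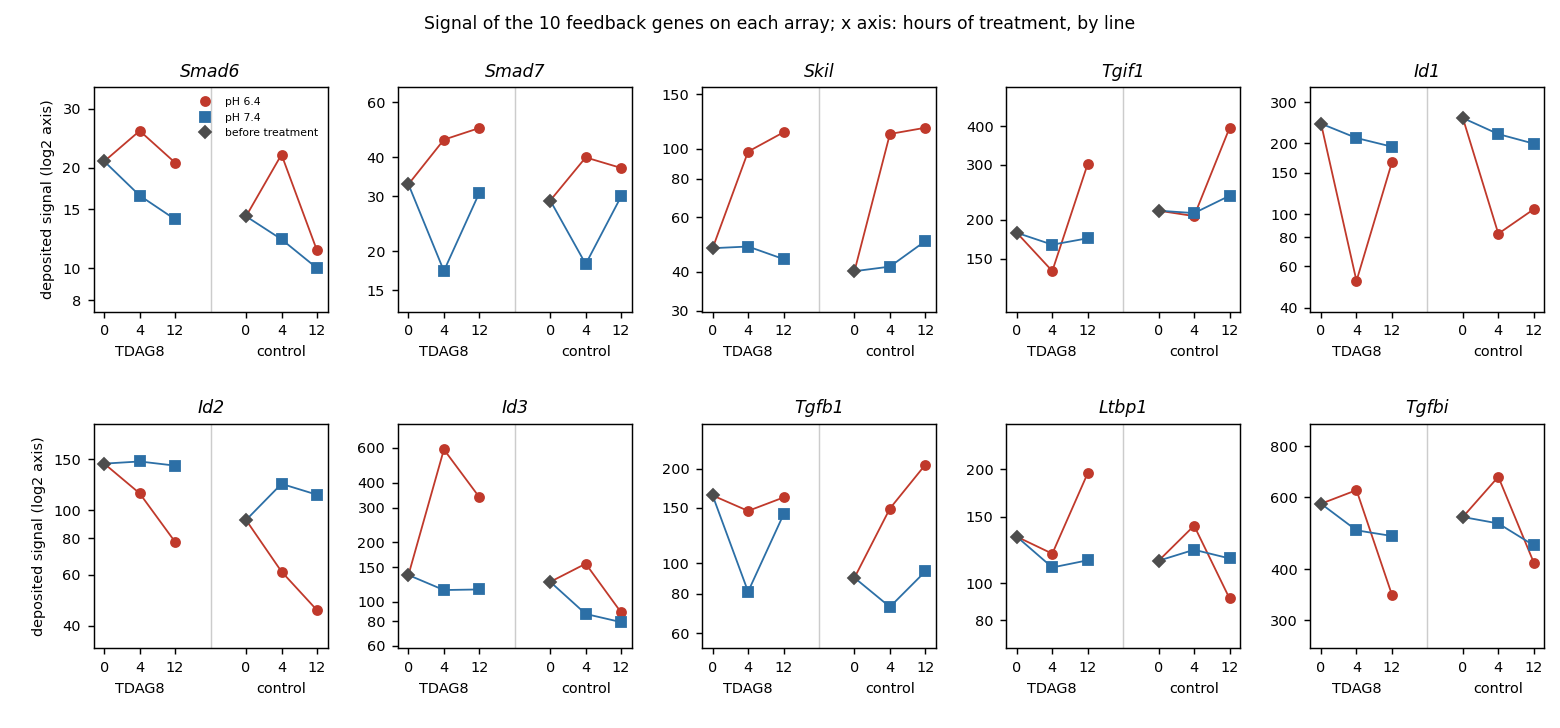
Deposited signal (log2 axis, with its own range for each gene) of the probe set used for each of the 10 genes, against hours of treatment (0 is before treatment), with the TDAG8 line on the left and the control line on the right of each panel; red circles are pH 6.4, blue squares pH 7.4, grey diamonds before treatment, and each symbol is 1 array. The red symbols of Skil, 97.8 to 116.8, lie above all its other symbols, and those of Id3 reach 589.8 in TDAG8 cells and 156.0 in control cells.

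Smad7 encodes the inhibitory Smad that blocks TGF-beta and BMP receptors alike. In TDAG8 cells Smad7 gave 45.6 and 49.7 after 4 and 12 h at pH 6.4, against 17.3 and 30.8 after 4 and 12 h at pH 7.4, and 32.8 before treatment. In control cells Smad7 gave 40.0 and 37.0 at pH 6.4, against 18.2 and 30.0 at pH 7.4, and 29.1 before treatment. All pH 6.4 arrays lay above all pH 7.4 arrays, and the lowest values were those after 4 h at pH 7.4 in both lines. The difference was 1.90-fold (log2 0.92, SE 0.18, adjusted p = 0.0393, higher at pH 6.4 in 4 of 4 pairs). The neutral arrays differed from the starting level too: relative to before treatment, Smad7 at pH 7.4 for 4 h differed by -0.86 on the log2 scale in TDAG8 cells and by -0.61 in control cells, single-array differences without a test.

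Smad6, the inhibitory Smad that acts mainly on the BMP branch, gave 25.8 and 20.7 in TDAG8 cells after 4 and 12 h at pH 6.4, against 16.5 and 14.0 at pH 7.4, and 20.9 before treatment. Control cells had a Smad6 signal of 21.9 and 11.3 at pH 6.4, against 12.2 and 10 at pH 7.4, and 14.3 before treatment. Each acid array was above its neutral partner, but the groups overlapped, since the control line at pH 6.4 for 12 h read below 3 of the 4 neutral arrays. The difference was 1.47-fold (log2 0.55, SE 0.12, adjusted p = 0.0481, higher at pH 6.4 in 4 of 4 pairs). These are low signals, close to the filter level. Relative to before treatment, Smad6 after 12 h at pH 6.4 differed by 0.08 on the log2 scale in TDAG8 cells and -0.25 in control cells. After 12 h at pH 7.4 it differed by -0.53 and -0.55. After 4 h the values were 0.32 and 0.49 at pH 6.4, against -0.36 and -0.13 at pH 7.4, all single-array differences without a test.

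Skil, which encodes the Smad corepressor SnoN, had the smallest p of the 10. Its signal in TDAG8 cells was 97.8 and 112.9 after 4 and 12 h at pH 6.4, against 48.3 and 44.0 at pH 7.4, and 47.7 before treatment. Its signal in control cells was 111.5 and 116.8 at pH 6.4, against 41.6 and 50.3 at pH 7.4, and 40.2 before treatment. Every acid array was far above every other array, and the neutral arrays stayed close to those before treatment. The difference was 2.49-fold (log2 1.32, SE 0.12, adjusted p = 0.0144, higher at pH 6.4 in 4 of 4 pairs), with pairs between 1.13 and 1.49. The Smad7 and Smad6 calls were lost when any 1 of the 4 pairs was left out, with adjusted p of 0.0871 to 0.112 for Smad7 and 0.0975 to 0.146 for Smad6. Skil passed without the 4 h pair of the control line (adjusted p = 0.043) and missed without each of the other 3 pairs (adjusted p = 0.0516 to 0.0779), fits in which 0 to 278 genes passed in all.

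**Figure D2:**
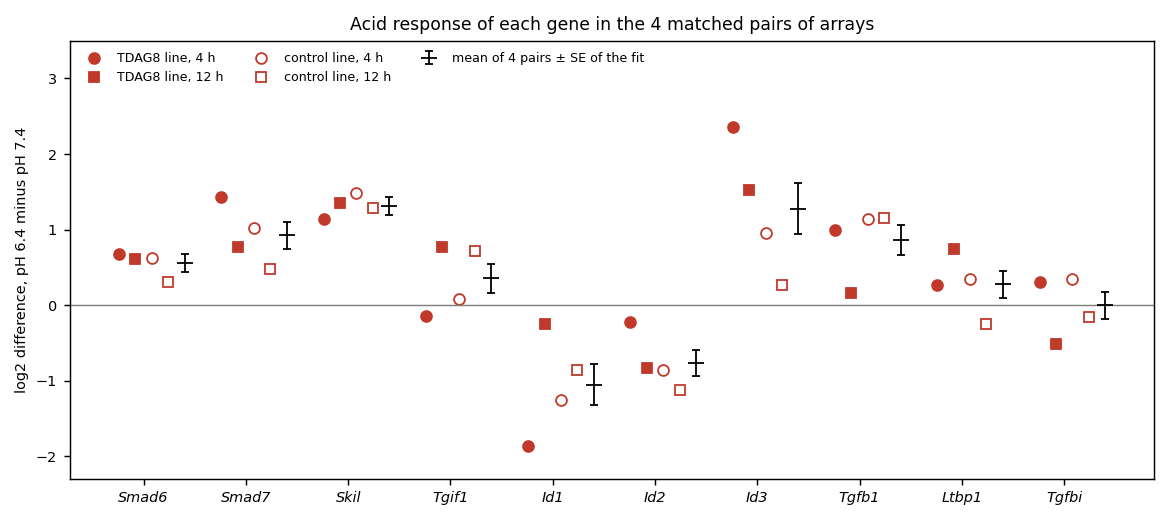
Acid response of the 10 genes, as the log2 difference of normalised signal, pH 6.4 minus pH 7.4, in each of the 4 pairs: filled symbols are the TDAG8 line, open symbols the control line, circles 4 h and squares 12 h, and the black bar is the mean of the 4 pairs with the standard error of the fit. Smad6, Smad7, Skil, Id3 and Tgfb1 lie above 0 in 4 of 4 pairs, and Id1 and Id2 lie below 0 in all 4.

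The Id genes are BMP targets, and their 3 members measured here did not run together. Id1 gave 52.1 and 166.4 in TDAG8 cells after 4 and 12 h at pH 6.4, against 211.0 and 193.8 at pH 7.4, and 242.9 before treatment. Id1 in control cells gave 82.7 and 105.1 at pH 6.4, against 219.3 and 199.7 at pH 7.4, and 256.6 before treatment. The acid arrays were all below the neutral ones, with the 2 acid arrays at 4 h the lowest. The log2 difference was -1.06 (SE 0.27, lower in 4 of 4 pairs), which did not pass (adjusted p = 0.0639).

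Id2 gave 114.3 and 77.7 in TDAG8 cells after 4 and 12 h at pH 6.4, against 147.3 and 142.5 at pH 7.4, and 144.8 before treatment. The Id2 values of control cells were 61.4 and 45.2 at pH 6.4, against 123.3 and 113.1 at pH 7.4, and 92.5 before treatment. Within each line the acid arrays were below the others, and 1 acid array of TDAG8 cells overlapped the neutral arrays of control cells. The log2 difference of -0.76 (SE 0.17, lower in 4 of 4 pairs) did not pass (adjusted p = 0.0517).

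Id3 gave 589.8 and 338.4 in TDAG8 cells after 4 and 12 h at pH 6.4, against 114.8 and 115.6 at pH 7.4, and 136.7 before treatment. The Id3 values of control cells were 156.0 and 88.4 at pH 6.4, against 86.9 and 79.0 at pH 7.4, and 126.3 before treatment. The 2 acid arrays of TDAG8 cells stood far above the other 8, and the control acid array at 12 h lay within the range of the neutral arrays. The log2 difference over all pairs was 1.28 (SE 0.34, higher at pH 6.4 in 4 of 4 pairs), which did not pass (adjusted p = 0.0694). The fit thus called no Id gene over both times, although Id1 and Id2 were lower and Id3 higher in every pair.

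On the ligand side, Tgfb1, which encodes TGF-beta 1, gave 146.8 and 162.0 in TDAG8 cells after 4 and 12 h at pH 6.4, against 81.3 and 143.1 at pH 7.4, and 164.4 before treatment. Tgfb1 in control cells gave 149.4 and 205.9 at pH 6.4, against 72.7 and 94.3 at pH 7.4, and 90.0 before treatment. The acid arrays lay above the neutral ones, by a narrow margin for TDAG8 cells at 12 h. The log2 difference of 0.86 (SE 0.20, higher at pH 6.4 in 4 of 4 pairs) did not pass (adjusted p = 0.0539). With the mean of both Tgfb1 probe sets in place of the one with the higher signal, the difference was 0.072 (adjusted p = 0.776), the other probe set reading 0.8 to 9.0. Relative to before treatment, Tgfb1 at pH 6.4 was at -0.01 and -0.02 on the log2 scale after 4 and 12 h in TDAG8 cells, and at 0.82 and 1.15 in control cells, differences between single arrays without a test.

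Ltbp1, whose product ties latent TGF-beta to the matrix, gave 119.7 and 195.2 in TDAG8 cells after 4 and 12 h at pH 6.4, against 110.1 and 115.0 at pH 7.4, and 132.7 before treatment. Ltbp1 in control cells gave 141.9 and 91.2 at pH 6.4, against 122.6 and 116.3 at pH 7.4, and 114.7 before treatment. At 12 h in acid the lines held the highest and the lowest value of the 10 arrays. The pooled log2 difference was 0.27 (SE 0.18, adjusted p = 0.351).

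Tgfbi, a secreted matrix protein gene named for its induction by TGF-beta, gave 625.0 and 345.9 in TDAG8 cells after 4 and 12 h at pH 6.4, against 498.0 and 482.3 at pH 7.4, and 578.8 before treatment. Tgfbi in control cells gave 673.9 and 415.1 at pH 6.4, against 517.7 and 457.4 at pH 7.4, and 537.0 before treatment. In both lines the acid array was the highest at 4 h and the lowest at 12 h, and the pooled log2 difference was -0.0041 (SE 0.18, adjusted p = 0.991). The corepressor gene Tgif1 gave 136.7 and 302.6 in TDAG8 cells at pH 6.4, against 166.2 and 174.3 at pH 7.4, and 181.5 before treatment. Its control values were 205.4 and 394.8 at pH 6.4, against 210.0 and 238.8 at pH 7.4, and 213.8 before treatment. The acid arrays at 12 h were the highest of each line, while those at 4 h had the lowest deposited signal of each line, and the pooled log2 difference was 0.35 (SE 0.20, adjusted p = 0.274).

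Over the 10 genes, the pH 6.4 and pH 7.4 arrays did not overlap for 4 on the normalised scale, Smad7, Skil and Tgfb1 above and Id1 below. Of all genes tested, 24.9% did not overlap, 12.6% above and 12.3% below.

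The acid responses at 4 h and at 12 h were then taken apart in 1 fit with pH within each time (2 pairs per time, 2 residual degrees of freedom). At 4 h, 2 of the 10 genes passed, against 4.65% of all genes, and both were higher, against 1.19% higher and 3.46% lower of all genes; 6 had an unadjusted p under 0.05, against 29.2%. These were Smad7 (log2 1.23, SE 0.16, adjusted p = 0.0433) and Skil (log2 1.31, SE 0.14, adjusted p = 0.0381). Id1 had a difference of -1.56 (SE 0.24) at 4 h and fell just short (adjusted p = 0.0516). The median over the 10 genes was 0.49 on the log2 scale at 4 h, against 0.007 over all genes.

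At 12 h, 3 of the 10 genes passed, against 23.4% of all genes, 11.1% higher and 12.3% lower, and 5 had an unadjusted p under 0.05, against 40.7%. Skil rose (log2 1.32, SE 0.14, adjusted p = 0.0168), Tgif1 rose (log2 0.74, SE 0.12, adjusted p = 0.0269) and Id2 fell (log2 -0.98, SE 0.20, adjusted p = 0.0407). With the mean of both Skil probe sets, the 12 h difference of Skil was 0.56 (adjusted p = 0.108). Smad7 was at 0.62 (SE 0.16, adjusted p = 0.0622) and Smad6 at 0.46 (SE 0.13, adjusted p = 0.0764), and the median of the 10 was 0.54, against 0.016 over all genes. With 1 of the 4 pairs left out, 0 of the 10 genes passed at 4 h in each of the 4 fits, and 0 or 1 passed at 12 h, the 1 being Skil without either 4 h pair. Over all genes, 0 passed at 4 h in each of these fits and 0 to 781 at 12 h, so the count at 4 h is not particular to the 10 genes.

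The difference between the 12 h and 4 h responses itself passed for 0 of the 10 genes with limma, as for 0.00% of all genes. At an unadjusted p under 0.05 there were 3, against 25.8% of all genes: Tgif1 (12 h minus 4 h, log2 0.77, SE 0.17, adjusted p = 0.109), Id1 (log2 1.01, SE 0.33, adjusted p = 0.172) and Tgfbi (log2 -0.67, SE 0.19, adjusted p = 0.144). For Skil the difference between the times was 0.0092 (SE 0.19, adjusted p = 0.979). The 12 h arrays as a whole were also set against the 4 h arrays over 4 pairs, and 0 of the 10 genes passed, as did 0.00% of all genes, with 2 of the 10 and 11.7% of all genes at an unadjusted p under 0.05.

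TDAG8 cells were set against control cells over 5 pairs of arrays, which asks whether the level differed between the 2 lines whatever the pH. The pairs repeat the same 2 lines, so the receptor and any other difference between the lines cannot be told apart. None of the 10 genes passed with limma, against 1.20% of all genes (0.674% higher, 0.526% lower), and 4 had an unadjusted p under 0.05, against 20.8%. Tgif1 came nearest, lower in TDAG8 cells in 5 of 5 pairs (log2 -0.42, SE 0.07, adjusted p = 0.0519). Id2 was higher in 5 of 5 pairs (log2 0.53, SE 0.11, adjusted p = 0.0775), as was Smad6 (log2 0.41, SE 0.10, adjusted p = 0.0947). Id3 was higher in 5 of 5 pairs as well, with the largest mean difference (log2 0.91, SE 0.30, adjusted p = 0.175). The lines overlapped for all 10 genes, and 2.06% of all genes did not overlap.

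**Figure D3:**
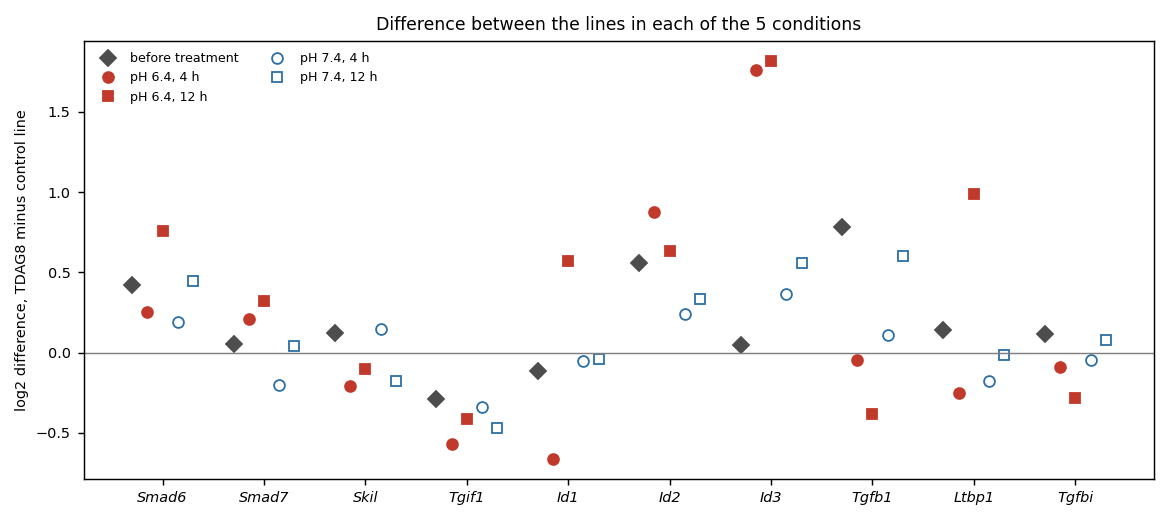
Difference between the lines for the 10 genes, as the log2 difference of normalised signal, TDAG8 minus control, in each of the 5 conditions; red filled symbols are pH 6.4, blue open symbols pH 7.4, circles 4 h, squares 12 h and grey diamonds before treatment. Id3 lies at 1.76 and 1.82 in the 2 acid conditions and between 0.05 and 0.56 in the other 3, while Tgif1 lies below 0 in 5 of 5.

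The line difference of Id3 was not of 1 size over the conditions. TDAG8 cells exceeded control cells by 1.76 and 1.82 on the log2 scale after 4 and 12 h at pH 6.4, by 0.37 and 0.56 after 4 and 12 h at pH 7.4, and by 0.05 before treatment. Read as acid responses, the pairs were 2.35 and 1.53 in TDAG8 cells at 4 and 12 h and 0.96 and 0.27 in control cells. The test of that difference, the interaction of pH and line, gave 1.33 on the log2 scale (SE 0.43, unadjusted p = 0.0293), which did not pass over all genes (adjusted p = 0.9999). It passed for 0 of the 10 genes and 0.00% of all genes, and at an unadjusted p under 0.05 Id3 was the 1 of the 10, against 2.79% of all genes. The other 9 genes had interaction values between -0.57 (Tgfb1, SE 0.37) and 0.47 (Id2, SE 0.34), on the probe set used for each gene. Id3 was not alone when each probe set was fitted on its own with limma. The second Smad7 probe set gave 1.12 (unadjusted p = 0.0349) and the second Id2 probe set 1.05 (unadjusted p = 0.0385). The second Skil probe set gave -0.70 (unadjusted p = 0.244).

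Ltbp1 and Id1 also had single conditions in which the lines stood apart, given here as values without a test. After 12 h at pH 6.4, TDAG8 cells exceeded control cells in Ltbp1 by 0.99 and in Id1 by 0.57 on the log2 scale. After 4 h at pH 6.4 the Id1 difference was -0.66, so its sign turned between the 2 times, and the Ltbp1 difference was -0.25.

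Of the genes, 6 had several probe sets, and 17 of the 20 probe sets were at or above the filter level. The second Smad7 probe set, 1443771_x_at, gave 38.0 and 33.2 in TDAG8 cells at pH 6.4, against 7.6 and 13.3 at pH 7.4, and 23.9 and 18.6 in control cells at pH 6.4, against 13.3 and 14.5 at pH 7.4. All its acid arrays were above all its neutral arrays, as for the first Smad7 probe set, but its acid response was 1.12 larger in TDAG8 cells (log2, SE 0.39, adjusted p = 0.9997 with each probe set fitted on its own), against 0.34 for the first (SE 0.39). The second Id2 probe set, 1422537_a_at, was lower at pH 6.4 in 4 of 4 pairs, by -0.86 and -0.06 in TDAG8 cells at 4 and 12 h and by -1.48 and -1.54 in control cells, and the third, 1453596_at, gave 5.1 to 10.9 and a mean difference of 0.005.

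The 4 Tgfbi probe sets gave 1 pattern, with acid responses of 0.24 to 0.61 at 4 h and -0.59 to -0.08 at 12 h. The second Skil probe set, 1422054_a_at, read 3.9 to 13.0, near the filter level, and its pairs ran from -0.82 to 0.71. The second Tgfb1 probe set, 1445360_at, read 0.8 to 9.0, under the filter in the mean, and was lower at pH 6.4 in 4 of 4 pairs, opposite to the first. The 2 further Ltbp1 probe sets read 0.4 to 2.7 and 1.8 to 7.3, under the filter.

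**Figure D4:**
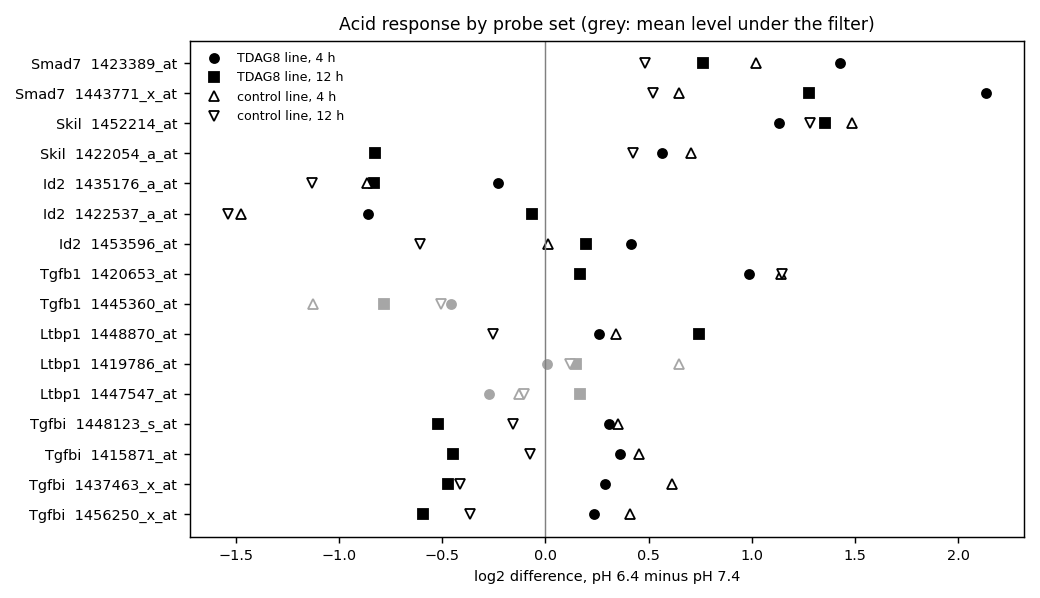
Acid response, as the log2 difference of normalised signal, pH 6.4 minus pH 7.4, for each probe set of the 6 genes with several; filled symbols are the TDAG8 line, open symbols the control line, circles and squares the TDAG8 line at 4 h and 12 h, triangles the control line, and grey marks probe sets with a mean under the filter. Both Smad7 probe sets lie above 0 in 4 of 4 pairs, and the 4 Tgfbi probe sets lie above 0 at 4 h and below 0 at 12 h.

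The rest of the pathway was read from a list of 61 other genes, of which 57 had a probe set with that single symbol and 38 passed the filter. This list too was chosen with earlier results of these data known, so its shares are description only. Over both times, 7 of the 38 passed at acid pH, 2 higher and 5 lower, with a median of -0.10 on the log2 scale, where 10% of all genes passed, 4.47% higher and 5.56% lower. The line comparison called 0 of the 38, against 1.20% of all genes, with 9 at an unadjusted p under 0.05, against 20.8%. At 4 h 3 of the 38 passed, all lower, where 4.65% of all genes passed, 1.19% higher and 3.46% lower. At 12 h 12 of the 38 passed, 5 higher and 7 lower, where 23.4% of all genes passed, 11.1% higher and 12.3% lower.

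Of 11 tested receptors and coreceptors, 3 passed over both times and all were lower, against 5.56% of all genes lower. Tgfbr2, the type II TGF-beta receptor, fell (log2 -0.87, SE 0.11, adjusted p = 0.0185, lower in 4 of 4 pairs), as did the coreceptor Tgfbr3, or betaglycan (log2 -0.87, SE 0.14, adjusted p = 0.0251), and the BMP receptor Bmpr1a (log2 -0.73, SE 0.15, adjusted p = 0.0458). At 4 h 1 of the 11 passed, Tgfbr2 (log2 -0.90, adjusted p = 0.0463), against 4.65% of all genes. At 12 h 5 of the 11 passed, against 23.4% of all genes: Acvr2b (log2 1.30) and Acvr1b (log2 0.71), both activin receptors, were higher, and Tgfbr3 (log2 -1.07), Tgfbr2 (log2 -0.83) and the coreceptor Eng (log2 -0.59) lower, with adjusted p between 0.0168 and 0.0462.

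Among 5 tested receptor-regulated Smads and Smad4, 2 passed over both times, against 10% of all genes. Smad1, which carries BMP signals, rose (log2 0.62, SE 0.13, adjusted p = 0.0433) and Smad5, which carries them too, fell (log2 -0.50, SE 0.11, adjusted p = 0.0469). The TGF-beta Smads did not pass, with Smad2 at -0.75 (SE 0.17, adjusted p = 0.0525) and Smad3 at -0.08 (SE 0.12, adjusted p = 0.696). Of 5 further intracellular brakes, 1 passed over both times, against 10% of all genes: Tgif2, a relative of Tgif1, rose (log2 0.57, SE 0.12, adjusted p = 0.0416). At 4 h 1 of the 5 passed, against 4.65% of all genes: Smurf1, a ubiquitin ligase that removes Smads and receptors, fell (log2 -0.82, SE 0.12, adjusted p = 0.049).

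Of 5 tested ligand genes, 1 passed at 12 h, against 23.4% of all genes. It was Tgfb2 (log2 1.62, SE 0.14, adjusted p = 0.0161), with signals of 0.6 to 22.6 over the 10 arrays, partly under the filter level. Of 3 tested target genes, 1 passed over both times, 1 at 4 h and 3 at 12 h, all lower at pH 6.4, against 5.56%, 3.46% and 12.3% of all genes lower. Hes1, a transcriptional repressor known mainly as a Notch target, fell over both times (log2 -1.48, SE 0.16, adjusted p = 0.0157) and at 12 h (log2 -1.62), and its call at 4 h was at the threshold (log2 -1.34, adjusted p = 0.05 after rounding). At 12 h the helix-loop-helix repressor gene Bhlhe40 (log2 -1.25, adjusted p = 0.0232) and the fibronectin gene Fn1 (log2 -1.07, adjusted p = 0.0174) were lower at pH 6.4 than at pH 7.4 as well. In TDAG8 cells Fn1 read 857.8 after 12 h at pH 6.4, against 1889.1 at pH 7.4 and 935.4 before treatment. The Fn1 values of control cells were 1239.8, against 2375.6 and 1243.7, so the acid arrays stayed nearer the starting level than the neutral ones. None of the 4 tested extracellular antagonists and none of the 5 tested genes of the latent complex passed over both times or at either time, with 2 antagonists and 1 latent-complex gene at an unadjusted p under 0.05 over both times.

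**Figure D5:**
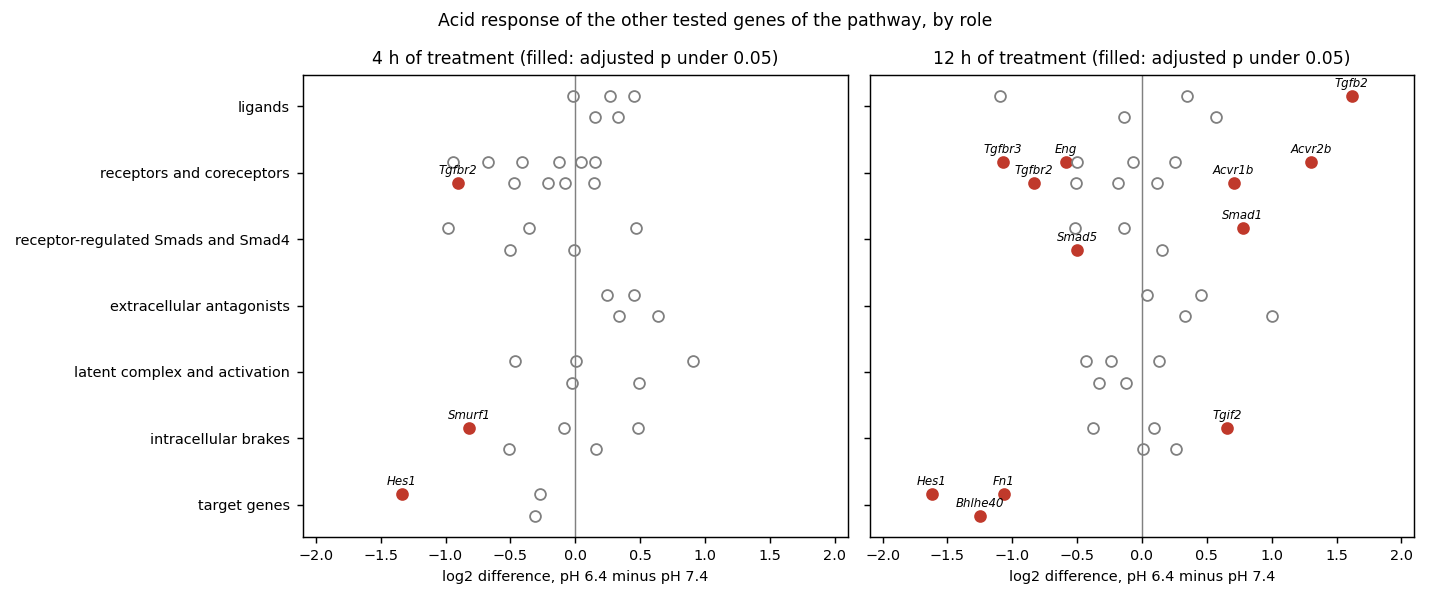
Acid response of the 38 other tested pathway genes by role, as the log2 difference of normalised signal, pH 6.4 minus pH 7.4, at 4 h on the left and 12 h on the right; each circle is 1 gene, filled and named where the adjusted p was under 0.05. There are 3 filled circles at 4 h, all below 0, and 12 at 12 h, 5 above and 7 below 0.

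For the 8 of the 10 genes whose log2 values spanned at least 1 over the 10 arrays, the genes with the most similar pattern were sought among 5699 others with such a span. Pearson's r over the 10 arrays describes likeness only, since the arrays share lines, times and pH. Nearest to Id3 were Nr4a2 (r = 0.958), Errfi1 (r = 0.951) and Lif (r = 0.944), and nearest to Smad7 were Cxcl1 (r = 0.936), Relb (r = 0.932) and Nfkbiz (r = 0.929). Skil ran most like 5830454E08Rik (r = 0.987), Prdm2 and Ccdc117, Smad6 like Gsta4 (r = 0.957), Tlcd3b and Aqp1, and Tgif1 like Bcap29 (r = 0.966), Pvt1 and Sgo2a. Id1 ran most like Tdrd3 (r = 0.984), Ankrd49 and Zfpm1, Id2 like Tob2 (r = 0.948), Fam13c and Med12l, and Tgfb1 like Plekho2 (r = 0.931), Phyh and Pck1. Of these genes, Med12l read 0.4 to 19.6, Pck1 4.0 to 10.6 and Lif 6.2 to 30.2, partly under the filter level of 6.61.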

How the data were processed

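The authors' deposited table holds linear signal intensity per probe set for 10 arrays, with the same 2% trimmed mean on each array; the software that made it is not given in the sources used here. Arrays were quantile normalised and log2(intensity + 2.4) was taken, 2.4 being the 20th percentile of the deposited intensity values, so fold changes of low genes are understated. Of 45101 probe sets, 34945 had 1 symbol in the platform annotation, 932 had several, 9160 had none and 64 were controls. The probe set of highest mean stood for its gene, and 12161 of 18193 genes, with a mean of at least the 40th percentile (log2 3.17, signal 6.61), were tested. limma 3.58.1 in R 4.3.3 (lmFit, eBayes, two-sided moderated test, Benjamini-Hochberg over all tested genes, adjusted p under 0.05) was fitted to 4 pairs for pH (3 residual degrees of freedom), 5 pairs for the lines (4) and the interactions with line and with time (2 each). The fits were tested on simulated data. The 10 genes and the pathway and marker lists were chosen with earlier results of these data known. All 10 genes and their probe sets are named; of the pathway list, up to 4 passing genes per role with the largest difference, and for each of the 10 genes the 3 genes most alike. An exception is the 12 h receptors, where all 5 passing genes are named, and non-passing Smads given for comparison. Alternatives covered normalisation, pseudocount, filter, probe sets, variance model, block, time in the model and pairs left out.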

Additional observations from a re-analysis of the deposited data

Results flagged for a closer look

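The acid response of Tgfbi pointed in opposite directions at the 2 times, in each line. At 4 h it was 0.31 on the log2 scale in TDAG8 cells and 0.35 in control cells, and at 12 h it was -0.52 in TDAG8 cells and -0.16 in control cells. The test of the difference, 12 h minus 4 h, gave -0.67 (SE 0.19, adjusted p = 0.144 with limma), which did not pass. Under robust variance estimation with a trend in limma it passed (adjusted p = 0.0288), a setting in which 1836 genes passed in all, against 0 in the reported fit. This was the 1 pass in 14 alternatives, whose adjusted p reached 0.412. All 4 Tgfbi probe sets showed the same turn of sign. The cause was not tested.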

How the results depend on the processing

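With 1 array per condition, few residual degrees of freedom limit every call, and signals near the filter level, such as those of Smad6, lie close to background. Counts of the 10 genes passing, against the reported settings, were as follows, and the counts over all genes in these settings are in the next paragraph. For acid pH over both times (3 reported), 6 passed under robust variance estimation with a trend, 6 with the pseudocount at the 40th percentile, 6 with the filter at the 60th, 7 with pH by time in the model, 1 with no filter and 0 to 1 with a pair left out. At 4 h (2 reported), 5 passed with the filter at the 60th percentile, 4 under robust estimation, 4 with no block, and 0 with no filter, with the pseudocount at the 5th percentile, with the mean of all probe sets and with each pair left out. At 12 h (3 reported), 5 passed under robust estimation, 1 with the mean of all probe sets, 0 with no filter and 0 to 1 with a pair left out. With no filter, 0 of all genes passed at 4 h or at 12 h. Between the lines (0 reported), 2 passed with the filter at the 60th percentile, 2 under robust estimation and 1 with the pseudocount at the 40th. For the change of the acid response with time (0 reported), 3 passed under robust estimation, where 1836 of all genes passed, and 1 with the filter at the 60th percentile, where 1387 did. The cause was not tested. Skil passed over both times in 12 of 15 alternatives, Smad7 in 9 of 15 and Smad6 in 4 of 14. Of the genes not called in the reported fit, Id2 passed in 7 of 15, Id1 and Tgfb1 in 5 of 15 each. Id3 passed in 3 of 15, Tgif1 in 1, and Tgfbi and Ltbp1 in 0. The call of Smad6 was thus lost in most alternatives. Smad6 was under the filter at the 60th percentile, a setting in which Id2, Id1 and Tgfb1 passed, so its count and theirs are not over the same settings.

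Over all genes, the 1220 acid calls became 241 with no filter, 1919 with the filter at the 60th percentile, 2537 with each probe set on its own, 2076 under robust estimation, 1863 with no block, 3397 with pH by time in the model and 0 to 278 with a pair left out. The 146 line calls became 85 with arrays centred on the median, 96 and 264 with the pseudocount at the 5th and 40th percentile, 9 with no filter, 588 with the filter at the 60th percentile, 67 with each probe set, 881 under robust estimation, 6 with only the treated arrays, 15 with no block and 4 to 28 with a pair left out. The 566 calls at 4 h became 1153 with arrays centred on the median, 185 and 1217 with the 2 pseudocounts, 0 with no filter, 2025 with the filter at the 60th percentile, 243 with the mean of all probe sets, 1060 with each probe set, 2421 under robust estimation, 1177 with no block and 0 with each pair left out. The 2843 calls at 12 h became 0 with no filter, 4551 with each probe set, 4428 under robust estimation and 0 to 781 with a pair left out; centring on the median moved the median of all genes there to 0.118. For the change with time, 0 became 1387, 1836 and 304 with the filter at the 60th percentile, robust estimation and no block.

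Of the single-gene values under alternatives, 744 kept their direction and their side of the threshold, 50 lost a call, 44 gained one and 26 changed sign, all 26 from values that did not pass. Over both times, Tgfbi turned to 0.068 with arrays centred on the median and 0.022 with the values as deposited, and ranged from -0.12 to 0.17 with a pair left out. Between the lines, Skil turned to 0.0044 with the values as deposited, and Smad7 to -0.013 and Tgfbi to 0.062 with the mean of all probe sets; with a pair left out Id1 ranged from -0.22 to 0.091, Tgfbi from -0.085 to 0.015 and Ltbp1 from -0.075 to 0.24. For the acid response by line, Id1 turned to -0.0035 with the pseudocount at the 5th percentile; with a pair left out Id1 ranged from -0.81 to 0.81, Tgif1 from -0.55 to 0.37 and Tgfbi from -0.61 to 0.21. By time, Ltbp1 turned to 0.25 and 0.042 with arrays centred on the median and as deposited, and Skil to -0.41 with the mean of all probe sets; with a pair left out Skil ranged from -0.17 to 0.19, Tgfb1 from -0.90 to 0.082 and Ltbp1 from -0.56 to 0.44. With a pair left out, Tgif1 at 4 h ranged from -0.15 to 0.082 and Ltbp1 at 12 h from -0.25 to 0.75. The labels give no replicate numbers, so matched conditions, not replicates, form the blocks of the reported fits, and the fits with no block are those above. The mean of all probe sets took Tgfb1 over both times to 0.072.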
